A study of Mus musculus with 8 samples.

Results

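Interferon response genes were followed in mesenchymal stem cells of mouse bone marrow that carry the leptin receptor (LEPR+). The set is a list of 42 gene symbols, and each of the 42 was found once among the 52636 genes of the count table. The cells came from C57BL/6 mice and were sorted, after collagenase digestion of flushed long bones, as live LEPR+ cells without the blood cell markers CD45 and Ter119 or the endothelial markers CD31 and CD144. All mice had been given 150 µg of an immunoglobulin intravenously each week for 3 weeks. The control group received HEL-Ig, an IgG1 against hen egg lysozyme, and the other group LTβR-Ig, a decoy form of the lymphotoxin β receptor (LTβR) that captures its ligands. There were 4 libraries in each group and no untreated mice, so both groups carry the effect of an injected antibody-like protein, if there is one. The labels do not give sex, age or how many mice went into a library, so a p-value refers to variation among these 8 libraries, which may be technical.

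Interferons are cytokines that put cells into an antiviral state. Type I interferons signal through the receptor chains IFNAR1 and IFNAR2 and the kinases JAK1 and TYK2 to a complex that holds STAT2 and IRF9 and binds the interferon-stimulated response element (ISRE) in the promoters of its targets. Interferon γ uses IFNGR1, IFNGR2, JAK1 and JAK2 and acts on promoters with the γ-activated sequence (GAS). Many of the targets are also made at a low tonic level without infection, in marrow stroma as in other tissues, and lymphotoxin receptors can act on some of them through NF-κB.

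The promoters of the members whose values matter most below are printed here with chosen motifs in capitals. They run 5′ to 3′ on the gene's strand and end at the base before the RefSeq transcription start (build GRCm38.p6). The motifs searched on both strands were the ISRE core (GAAA, any 2 bases, GAAA), the GAS core TTCNNNGAA and the κB decamer bound by NF-κB. Ifit1, Ifit3 and Isg15 are shown because their levels followed those of the other members closely and spread widely in the LTβR-Ig group, Bst2 because it holds the ISRE letters and did not move with them, and Irf1 because it differed most between the groups.
Ifit1 (chr19:34640739-34640888, plus strand): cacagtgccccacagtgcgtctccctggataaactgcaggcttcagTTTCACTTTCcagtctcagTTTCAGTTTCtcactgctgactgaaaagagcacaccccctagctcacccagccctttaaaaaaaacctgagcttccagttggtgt
Ifit3 (chr19:34583349-34583528, plus strand): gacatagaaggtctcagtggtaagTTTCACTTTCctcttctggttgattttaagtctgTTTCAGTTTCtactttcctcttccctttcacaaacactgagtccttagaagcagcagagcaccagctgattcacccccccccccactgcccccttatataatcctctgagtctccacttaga
Isg15 (chr4:156200819-156200938, minus strand): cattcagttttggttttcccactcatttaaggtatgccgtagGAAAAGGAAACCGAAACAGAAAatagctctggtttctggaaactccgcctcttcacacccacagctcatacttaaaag
Bst2 (chr8:71537473-71537622, minus strand): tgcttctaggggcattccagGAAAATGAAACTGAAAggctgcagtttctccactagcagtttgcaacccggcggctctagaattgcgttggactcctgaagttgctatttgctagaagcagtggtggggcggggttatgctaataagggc
Irf1 (chr11:53769894-53770013, plus strand): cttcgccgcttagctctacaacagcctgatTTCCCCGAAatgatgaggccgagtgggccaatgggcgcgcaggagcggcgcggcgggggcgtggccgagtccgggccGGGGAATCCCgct
In Ifit1, Ifit3, Isg15 and Bst2 the capitals mark ISRE cores only, which overlap each other in Isg15 and Bst2. Bst2 also held a GAS core and a κB decamer, which are not marked. In Ifit1 and Ifit3 the core is read on the opposite strand. In Irf1 the first capitals mark a GAS core and the second a κB decamer, and no ISRE core lay in either of its 2 RefSeq windows of 250 bases.

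Promoter windows of 250 bases were matched for 30 of the 42 members. An ISRE core lay in 16 of these 30 (53.3%), against 3.46% of 27025 genes with a window. A GAS core lay in 9 (30.0%, against 8.13%) and a κB decamer in 8 (26.7%, against 8.23%). Irf2, Bst2 and Gbp5 held all 3 motifs. A match is a match of letters only and does not show that a factor bound there.

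The libraries were deep and even, with total counts of 52378101 to 64403177, and all 42 members passed the filter on low counts. Markers of the sorted cells were abundant in every library: Lepr lay between 3159 and 4498 CPM (read counts scaled to a common library size by TMM) and Cxcl12 was at 13390 CPM or more. Markers of cells that the gate should remove were also present, with erythroid markers at 1.70 to 4.84% of counts, neutrophil markers at 0.406 to 0.939%, macrophage markers at 0.0253 to 0.122%, endothelial markers at 0.00345 to 0.0272% and plasmacytoid dendritic cell markers at 0.0294 to 0.0485%. Most of that last share came from Bst2 itself, which is both a member and in that list, and from Tcf4 (38.7 to 161 CPM), while Siglech was at 1.66 to 9.01 CPM. No difference between the groups was found for the 11 marker lists (exact two-sided permutation, smallest p = 0.4, adjusted p = 1). With 4 libraries against 4 the smallest possible p is 0.0286, or 0.314 for a single list after adjustment over 11, so this test could pass no single list. The ratio of LTβR-Ig to control was 1.53 for endothelial and 1.52 for megakaryocyte and platelet markers, the latter 1.11 to 2.24 without each library in turn, and 0.888 to 1.13 for the other 9 lists. Ebf1 stands in both the stromal and the B cell list. In bulk RNA, fewer cells of a type and less RNA per cell cannot be told apart.

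Level per length was given as FPKM, the TMM-scaled CPM divided by the kilobases of exon. Over all 8 libraries Bst2, which encodes the tetherin that holds budding virus at the cell surface, had the highest mean at 285 FPKM. Ifi27, a small mitochondrial protein gene, followed at 220.0 FPKM and Iigp1, an immunity-related GTPase, at 97.6 FPKM. Bst2 and Ifi27 overlapped across libraries, and both lay above Iigp1 in each library. Isg15 (86.3 FPKM), Ifit1 (59.8), Ifi35 (58.0) and Igtp (56.9) came next with overlapping ranges. At the low end were Mx1 (1.29 FPKM), Gbp6 (0.896), Mx2 (0.458), Gbp4 (0.349), Oas2 (0.301) and Gbp5 (0.282). These 6 genes had under 10 CPM on average, and the remaining 36 had more.

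**Figure D1:**
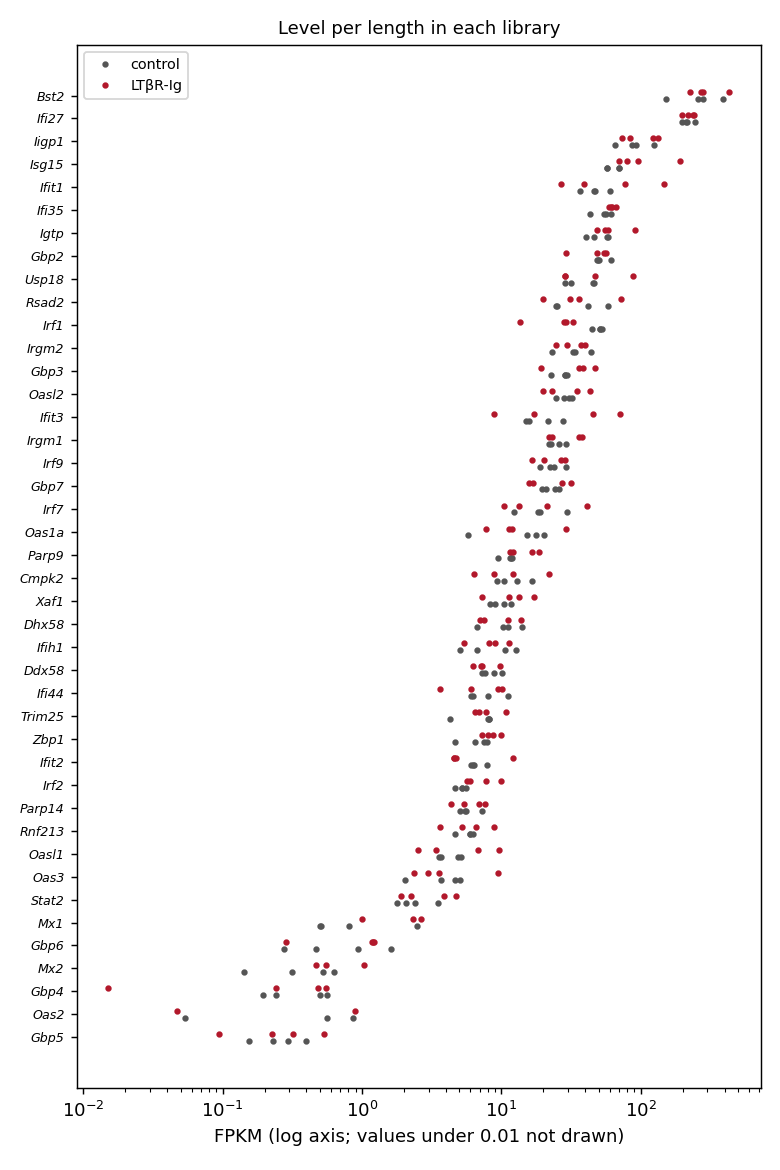
Level per length (FPKM, log axis) of the 42 members, ordered by their mean over 8 libraries, with each point a library and control and LTβR-Ig libraries in separate colours. Bst2 and Ifi27 lie at the top and Gbp5, Oas2 and Gbp4 at the bottom, and values under 0.01, among them Mx1, Mx2 and Oas2 at 0 in LTβR-Ig replicate 4, are not drawn.

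The comparison of LTβR-Ig with control libraries asked whether these genes change when LTβR signalling is blocked. No member passed an adjusted p of 0.05 in edgeR's quasi-likelihood test (0 of 42), where 6 of 16045 genes did (0.0374%). At an unadjusted p under 0.05, 1 member was lower, Irf1, where 2.93% of all genes were lower. In the other direction 2 members were higher, Irf2 and Isg15, where 3.39% of all genes were higher. DESeq2 called 1 member, Irf1, among 338 of 17391 genes (1.94%), and limma-voom with sample weights called none of them among 14 of 16045 genes (0.0873%), with Irf1 lower and Irf2 higher at an unadjusted p under 0.05. The median log2 fold change over the 42 members was 0.14, with 30 above 0 and 12 below, against 0.00 over all genes tested. That median rested on single libraries and was -0.05 without LTβR-Ig replicate 3 and 0.00 without control replicate 4. Of the 42 fold changes, 12 changed sign without LTβR-Ig replicate 3, all of them to below 0, and 10 without control replicate 4. Groups did not overlap for 1 of 42 members on the lower side and 1 on the higher side, near the 2.53 and 2.36% of all genes that did so. These counts do not set the members apart from other genes.

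Irf1 and Irf2, which are related factors of the interferon regulatory family that bind the same DNA element, stood on opposite sides. Irf1 is an activator induced by interferon and through NF-κB, and Irf2 is known mainly as its antagonist. Irf1 (ENSMUSG00000018899.16, chromosome 11, 53770014 to 53778374 in mm10) was at 209, 177, 202 and 201 CPM in control replicates 1 to 4 and 111, 130.3, 116 and 54.1 CPM in LTβR-Ig replicates 1 to 4. Every LTβR-Ig library lay below every control library, and LTβR-Ig replicate 4 was the lowest of all. Irf1 had a mean of 197 ± 14.1 CPM for HEL-Ig against 103 ± 33.5 CPM for LTβR-Ig (SD, n = 4 each), a 1.92-fold difference (log2 fold change -0.94, SE 0.24, edgeR adjusted p = 0.365, 95% interval -1.49 to -0.39). The unadjusted p of Irf1 was below 0.05 in every alternative fit. DESeq2 gave Irf1 an adjusted p of 0.027, and over the edgeR and limma alternatives it lay between 0.139 and 0.66. Without LTβR-Ig replicate 4 the log2 fold change was -0.73 (edgeR adjusted p = 0.139), and the other 7 libraries were separated as before. Gm17334, an overlapping gene on the other strand, shares 135 exon bases with Irf1, and the strand setting of the counting is not given.

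Irf2 (ENSMUSG00000031627.9, chromosome 8, 46739732 to 46847458) was at 34.1, 41.1, 38.5 and 38.3 CPM in control replicates 1 to 4 and 41.97, 43.9, 56.9 and 73.1 CPM in LTβR-Ig replicates 1 to 4. All 4 LTβR-Ig libraries lay above the highest control library, though the closest of them, replicate 1, exceeded it by less than 1 CPM. Irf2 had a mean of 38.0 ± 2.90 CPM for HEL-Ig against 54.0 ± 14.4 CPM for LTβR-Ig (SD, n = 4 each), a 1.42-fold difference (log2 fold change 0.51, SE 0.19, edgeR adjusted p = 0.681). Without LTβR-Ig replicate 4, its highest library, the log2 fold change was 0.32. The unadjusted p of Irf2 rose above 0.05 when control replicate 1, control replicate 4, LTβR-Ig replicate 3 or LTβR-Ig replicate 4 was left out. LTβR-Ig replicate 4 was thus both the lowest library for Irf1 and the highest for Irf2.

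For Irf7, Irf9 and Stat2, the other regulators, the groups overlapped. Irf7, the factor that amplifies type I interferon production, was at 68.7, 111, 71.9 and 46.8 CPM in control replicates 1 to 4 and 80.7, 50.2, 156 and 39.1 CPM in LTβR-Ig replicates 1 to 4. Its highest and lowest libraries were both in the LTβR-Ig group, 3.99-fold apart (log2 fold change 0.13, 95% interval -0.86 to 1.11, and -0.39 without LTβR-Ig replicate 3). For Irf9, which gives the STAT complex its DNA contact, the log2 fold change was -0.03 (95% interval -0.49 to 0.42). Stat2 had 0.38 (95% interval -0.41 to 1.17), with the same LTβR-Ig libraries, 1 and 3, above the other LTβR-Ig libraries as for Irf7. Irf7 and Irf9 share short exon stretches with Phrf1 (45 bases) and Rnf31 (123 bases), and how reads there were assigned or dropped was not tested.

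None of the 4 sensors of viral nucleic acid had an unadjusted p under 0.05. Ifih1 and Ddx58 encode the RNA sensors MDA5 and RIG-I, Dhx58 their regulator LGP2 and Zbp1 a sensor of Z-form nucleic acid. Zbp1 had the smallest p of the 4, at 27.6, 26.3, 22.9 and 16.3 CPM in control replicates 1 to 4 and 30.9, 28.3, 35.1 and 25.6 CPM in LTβR-Ig replicates 1 to 4 (log2 fold change 0.36, SE 0.20, edgeR adjusted p = 0.929). The groups overlapped, with LTβR-Ig replicate 4 below control replicates 1 and 2. The log2 fold changes of Ifih1, Ddx58 and Dhx58 were -0.05, -0.15 and -0.10, with 95% intervals that all held 0. Dhx58 overlaps an antisense transcript over 141 exon bases.

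The 14 antiviral effectors were the most variable role, with a median SD between libraries of one group of 0.72 on the log2 CPM scale. Ifit1 and Ifit3 encode proteins that bind foreign RNA. Ifit1 was at 124, 159.5, 122 and 97.1 CPM in control replicates 1 to 4 and 203, 103, 389 and 71.5 CPM in LTβR-Ig replicates 1 to 4. The control libraries stayed within 1.64-fold of each other while the LTβR-Ig libraries spanned 5.44-fold, from below the lowest control to above the highest. Ifit3 was at 37.6, 47.9, 27.5 and 26.3 CPM in control replicates 1 to 4 and 78.9, 30.0, 124 and 15.4 CPM in LTβR-Ig replicates 1 to 4, with the same LTβR-Ig libraries at both ends (8.07-fold apart). Ifit3 had the smallest p of the effectors (log2 fold change 0.83, SE 0.57, edgeR adjusted p = 0.979). Without LTβR-Ig replicate 3 the log2 fold change of Ifit3 was 0.26, and with limma-voom it was 0.41. Ifit1 had a log2 fold change of 0.61 that became 0.01 without LTβR-Ig replicate 3. Ifit2 was at 18.6, 17.9, 47.9 and 17.9 CPM in LTβR-Ig replicates 1 to 4 against 23.9 to 30.9 CPM in controls, and its log2 fold change went from -0.03 to -0.52 without LTβR-Ig replicate 3.

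Among the remaining effectors, the oligoadenylate synthetase family makes the messenger that activates RNase L. Oasl2, a synthetase-like member, was at 204, 193, 180.5 and 158 CPM in control replicates 1 to 4 and 223, 147, 273 and 127 CPM in LTβR-Ig replicates 1 to 4, with LTβR-Ig replicate 3 highest and replicate 4 lowest of all 8. Oas1a, Oas3 and Oasl1 had log2 fold changes of 0.03, 0.25 and 0.37, all with LTβR-Ig replicate 3 as the highest library. Without it they were -0.50, -0.38 and -0.02, and that of Oasl2 went from 0.07 to -0.15. Oas2 was found in few libraries, at 0, 2.50, 3.82 and 0.239 CPM in control replicates 1 to 4 and 0.211, 0, 3.95 and 0 CPM in LTβR-Ig replicates 1 to 4, and its interval of -5.45 to 4.14 leaves its difference undetermined. The GTPase genes Mx1 and Mx2 were also low, and neither had a count in LTβR-Ig replicate 4. Mx1 was at 1.88, 9.40, 3.07 and 1.91 CPM in control replicates 1 to 4 and 8.82, 3.77, 10.1 and 0 CPM in LTβR-Ig replicates 1 to 4, with control replicate 2 and LTβR-Ig replicates 1 and 3 highest. Mx2 was at 2.28, 1.14, 1.89 and 0.512 CPM in control replicates 1 to 4 and 3.71, 1.70, 1.99 and 0 CPM in LTβR-Ig replicates 1 to 4. In most inbred mouse strains, C57BL/6 among them, the Mx1 gene carries a deletion that destroys the protein, so its transcript level is no measure of function.

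Rsad2, Bst2 and Cmpk2 did not share one pattern. Rsad2, which encodes viperin, was at 109, 107, 252 and 182 CPM in control replicates 1 to 4 and 86.4, 134, 310.0 and 156 CPM in LTβR-Ig replicates 1 to 4, with replicate 3 highest in both groups. Its log2 fold change was 0.08, and -0.37 without LTβR-Ig replicate 3. For Cmpk2, its neighbour on chromosome 12 and a nucleotide kinase gene, the log2 fold change was 0.00 (95% interval -0.83 to 0.83). Bst2 was at 252, 230.3, 349 and 137 CPM in control replicates 1 to 4 and 243, 202, 252 and 389.9 CPM in LTβR-Ig replicates 1 to 4. Here LTβR-Ig replicate 4, the lowest of its group for most effectors, was the highest, and control replicate 3 came next. Ifi44, a cytoplasmic interferon-induced gene, had a log2 fold change of -0.11.

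ISG15 is a ubiquitin-like modifier, and the 6 genes grouped with it all had log2 fold changes above 0, from 0.05 to 0.78, though those of Usp18, Trim25, Rnf213 and Parp14 were below 0 without LTβR-Ig replicate 3. Isg15 itself (chromosome 4, 156199424 to 156200818) was at 43.1, 52.8, 52.6 and 43.5 CPM in control replicates 1 to 4 and 72.2, 60.3, 145 and 52.7 CPM in LTβR-Ig replicates 1 to 4. LTβR-Ig replicates 1 to 3 lay above all controls and replicate 4 lay just under the highest control, so the groups overlapped. Isg15 had a mean of 48.0 ± 5.44 CPM for HEL-Ig against 82.5 ± 42.3 CPM for LTβR-Ig (SD, n = 4 each), a 1.72-fold difference (log2 fold change 0.78, SE 0.30, edgeR adjusted p = 0.698). A single library carried much of that difference, since without LTβR-Ig replicate 3 the log2 fold change was 0.37 (edgeR adjusted p = 0.744). The unadjusted p of Isg15 also rose above 0.05 without control replicate 1 or 4. Usp18, the protease that removes ISG15 and restrains IFNAR signalling, was at 126, 129.6, 87.6 and 79.5 CPM in control replicates 1 to 4 and 132, 79.4, 247 and 79.2 CPM in LTβR-Ig replicates 1 to 4, with LTβR-Ig replicate 3 standing above the other 7. Its log2 fold change was 0.34, and -0.12 without that library. It shares 124 exon bases with Gm44148 on the other strand. Parp9, an ADP-ribosyltransferase family gene, had 0.40 (95% interval -0.00 to 0.81) and shares 458 exon bases with Dtx3l on the other strand. Parp14, Trim25, a ubiquitin ligase gene of the RIG-I pathway, and Rnf213, a large ubiquitin ligase gene, had 0.05, 0.16 and 0.08. Rnf213 overlaps a transcript of the other strand over 1476 exon bases.

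The guanylate-binding proteins and immunity-related GTPases attack the vacuoles of intracellular pathogens and respond chiefly to interferon γ. None of the 10 had an unadjusted p under 0.05, and their log2 fold changes ran from -0.21 to 0.35. Iigp1 was at 540.3, 727, 503 and 377 CPM in control replicates 1 to 4 and 707, 427, 777 and 487 CPM in LTβR-Ig replicates 1 to 4. The groups overlapped, with LTβR-Ig replicate 3 above the highest control and control replicate 4 below the lowest LTβR-Ig library. Igtp had the smallest p of the role, at 82.3, 118, 93.1 and 115 CPM in control replicates 1 to 4 and 112, 118, 183 and 98.6 CPM in LTβR-Ig replicates 1 to 4 (log2 fold change 0.32, SE 0.21, edgeR adjusted p = 0.961). Without LTβR-Ig replicate 3 the Igtp libraries of the group, at 98.6 to 118 CPM, lay within the range of the controls. Gbp2, Gbp3 and Gbp7 were at 63.0 to 178 CPM in all libraries, with log2 fold changes of -0.16, 0.35 and 0.02. Irgm1 and Irgm2, which regulate the other immunity-related GTPases, had 0.25 and -0.03. Gbp4, Gbp5 (log2 fold change 0.12, and -0.33 without LTβR-Ig replicate 3) and Gbp6 were under 10 CPM in every library. Gbp4 was at 1.45, 1.82, 4.23 and 3.72 CPM in control replicates 1 to 4 and 0.113, 1.81, 3.63 and 4.12 CPM in LTβR-Ig replicates 1 to 4, with LTβR-Ig replicate 1 lowest. Gbp6 was at 9.54, 2.81, 5.62 and 1.64 CPM in control replicates 1 to 4 and 7.15, 1.70, 7.23 and 6.98 CPM in LTβR-Ig replicates 1 to 4, with the groups overlapping. The Gbp genes are close paralogs in 2 clusters on chromosomes 3 and 5. Gbp6 shares 1726 exon bases with Gm43302, Gbp7 shares 637 with the pseudogene Gm43802, and Igtp shares 162 with Irgm2. The counts of these genes depend on how reads from such stretches were assigned or dropped, which was not tested.

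Ifi27 and Ifi35 had the smallest SD between libraries of a group among the 42 members. Ifi27 was at 358, 315, 310.3 and 289 CPM in control replicates 1 to 4 and 320.4, 349.9, 349.6 and 289.7 CPM in LTβR-Ig replicates 1 to 4 (log2 fold change 0.04, 95% interval -0.19 to 0.28). Ifi35, which encodes a regulator of innate signalling, was at 97.2, 106, 94.6 and 74.7 CPM in control replicates 1 to 4 and 115, 102, 107 and 106 CPM in LTβR-Ig replicates 1 to 4 (log2 fold change 0.21, SE 0.12, edgeR adjusted p = 0.941). LTβR-Ig replicates 1 and 3 lay above the highest control and replicates 2 and 4 within the control range. An antisense gene, Gm11626, shares 290 exon bases with Ifi35. For Xaf1, a pro-apoptotic interferon target, the log2 fold change was 0.32 (95% interval -0.25 to 0.88).

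**Figure D2:**
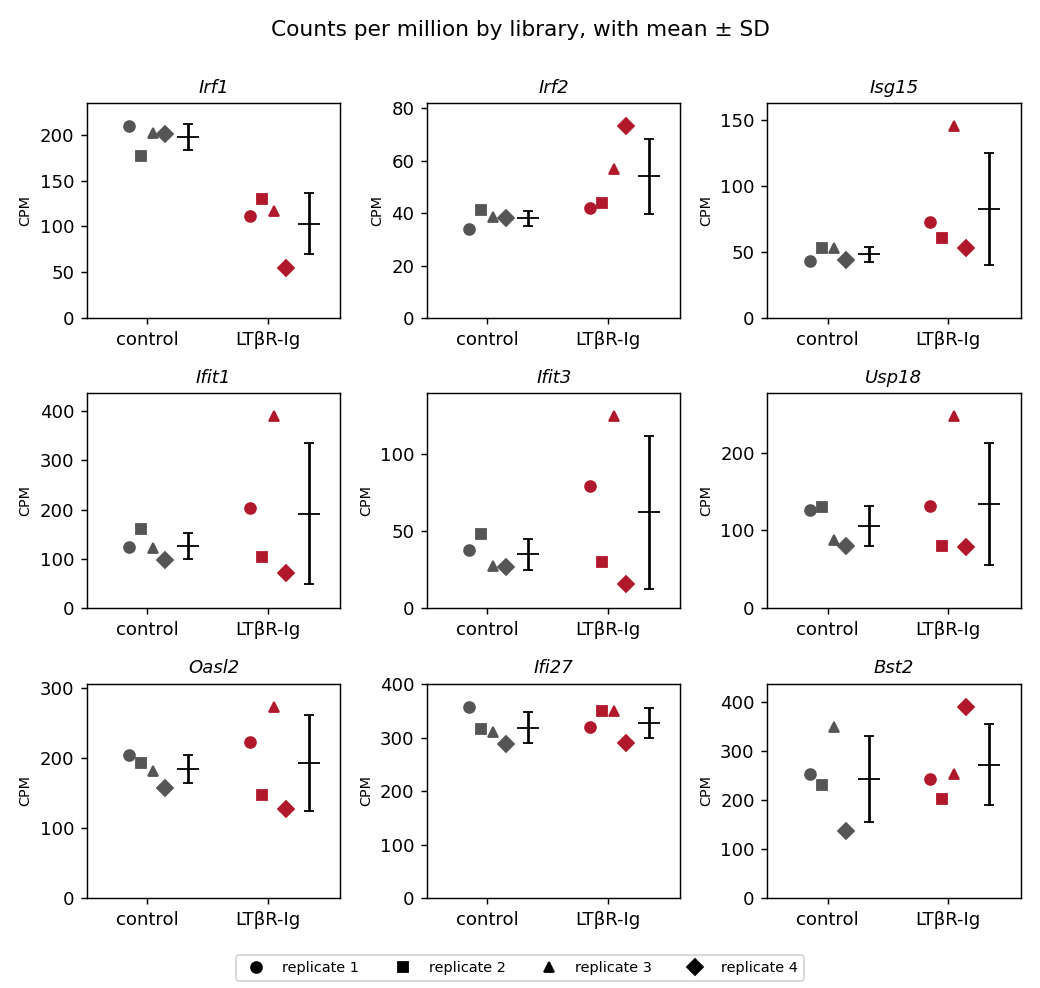
TMM-scaled CPM (vertical axis, from 0) of 9 members in the 4 control and 4 LTβR-Ig libraries, with one symbol per replicate number and the mean ± SD beside each group. Irf1 and Irf2 separate the groups, while Ifit1, Ifit3, Usp18 and Isg15 have LTβR-Ig replicate 3 highest, and Bst2 has LTβR-Ig replicate 4 highest.

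**Figure D3:**
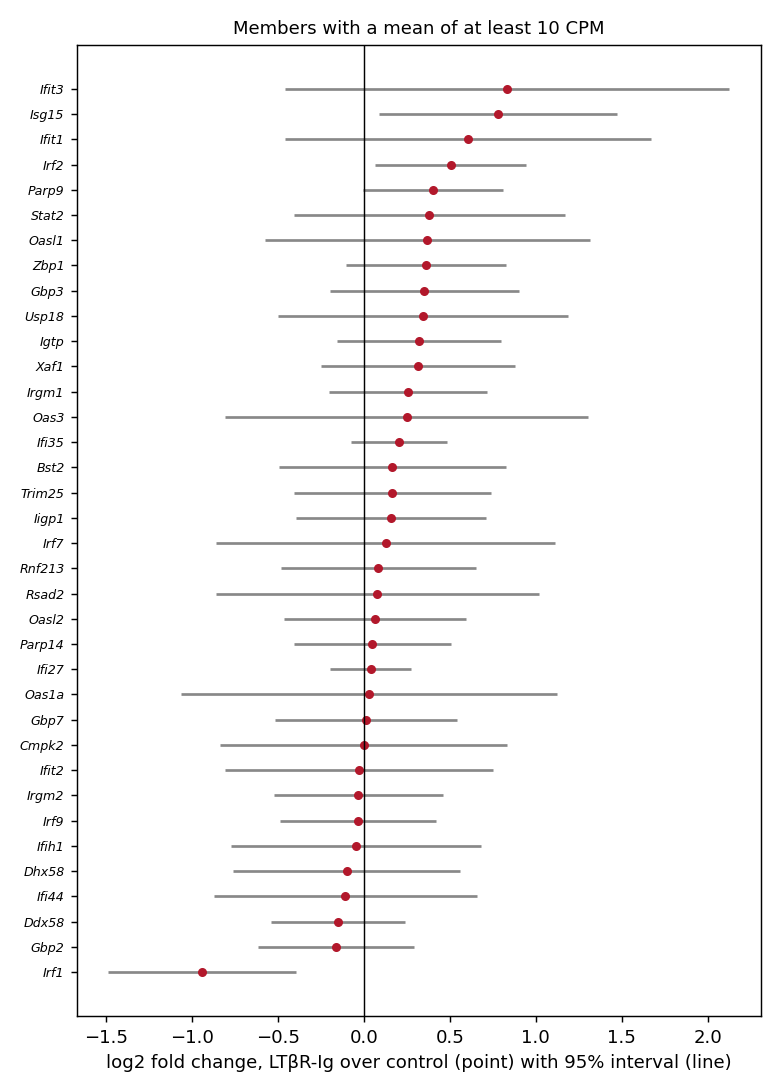
Log2 fold change of LTβR-Ig over control (point) with its 95% interval (line) for the 36 members with a mean of at least 10 CPM, ordered by the fold change. Intervals of Irf1 (-1.49 to -0.39), Irf2 (0.07 to 0.94) and Isg15 (0.09 to 1.47) leave out 0 before adjustment for the number of genes.

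The upstream part of the pathway was compared next. Of 13 interferon ligand genes, 11 had 0 counts in all 8 libraries, among them Ifnb1 and the 6 Ifna genes looked at. A count of 0 allows up to 0.0466 to 0.0573 CPM in these libraries (3 counts, covering counting error only). Ifng had 11 counts in control replicate 4 and 43 in LTβR-Ig replicate 3 and none elsewhere, and Ifnz had 7 counts or fewer. No ligand gene could be tested. These counts come from the sorted cells and do not show whether other cells of the marrow made interferon. All 4 receptor chains were well expressed. Ifnar1 was at a mean of 60.2 ± 4.74 CPM for HEL-Ig against 54.4 ± 10.6 CPM for LTβR-Ig (SD, n = 4 each) (log2 fold change -0.15) and Ifnar2 at a mean of 194 ± 17.8 CPM for HEL-Ig against 181 ± 11.3 CPM for LTβR-Ig (SD, n = 4 each) (log2 fold change -0.10). For interferon γ, Ifngr1 had -0.09 (95% interval -0.32 to 0.13) and Ifngr2 0.26 (95% interval -0.05 to 0.58). The kinase genes Jak1 and Tyk2 had 0.08 and -0.17, and both intervals held 0.

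Of the 47 pathway genes outside the members 32 were tested, and 0 passed over all genes by edgeR. At an unadjusted p under 0.05, 2.93% of all genes were lower and 3.39% higher. Of the 32 pathway genes, 1 was lower and 1 higher. The lower one was Tmem173, which encodes the DNA-sensing adaptor STING, at 67.7, 60.3, 69.2 and 61.7 CPM in control replicates 1 to 4 and 39.0, 54.0, 46.4 and 53.6 CPM in LTβR-Ig replicates 1 to 4 (log2 fold change -0.42, SE 0.14, edgeR adjusted p = 0.569). The groups did not overlap for it, as for 1 of the 32 pathway genes on the lower side, where 2.53% of all genes did so. The higher one was Sh2b3, an adaptor gene that restrains JAK signalling, at a mean of 16.3 ± 3.77 CPM for HEL-Ig against 31.0 ± 12.1 CPM for LTβR-Ig (SD, n = 4 each) (log2 fold change 0.92, SE 0.31, edgeR adjusted p = 0.596).

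Other interferon-induced genes from a list of 65 were tested in 62 cases. Again 0 passed over all genes by edgeR. Of those with an unadjusted p under 0.05, 3 were lower and 2 higher, where 2.93% of all genes were lower and 3.39% higher. The list's median log2 fold change was 0.00. The lower 3 were Ifitm1, Cxcl10 and Psmb10. Ifitm1, a membrane protein gene that blocks viral entry, was at 59.2, 42.8, 44.0 and 75.0 CPM in control replicates 1 to 4 and 19.3, 27.6, 11.3 and 37.5 CPM in LTβR-Ig replicates 1 to 4 (log2 fold change -1.21, SE 0.36, edgeR adjusted p = 0.478), with no overlap between the groups. Psmb10, a subunit of the immunoproteasome, was at 117, 144, 143 and 124 CPM in control replicates 1 to 4 and 90.4, 101, 111 and 99.7 CPM in LTβR-Ig replicates 1 to 4 (log2 fold change -0.39, SE 0.11, edgeR adjusted p = 0.460), also without overlap. These were the 2 of 62 genes without overlap on the lower side, where 2.53% of all genes did so. Cxcl10, a T cell chemokine gene induced by interferon and NF-κB, was at 80.2, 81.8, 74.2 and 49.9 CPM in control replicates 1 to 4 and 44.0, 27.5, 69.6 and 28.7 CPM in LTβR-Ig replicates 1 to 4 (log2 fold change -0.75, SE 0.31, edgeR adjusted p = 0.752), with LTβR-Ig replicate 3 inside the control range. The higher 2 were Samhd1, a nucleotide hydrolase gene at a mean of 293 ± 23.1 CPM for HEL-Ig against 351 ± 28.0 CPM for LTβR-Ig (SD, n = 4 each) (log2 fold change 0.26), and the low-count gene Gbp9 (1.48), which shares exon bases with Gbp4.

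Co-variation between libraries was then described from each member's log2 CPM minus the mean of its own group, so that the difference between the groups takes no part. An effect shared by libraries of the same replicate number, if there is one, was not removed and stays in these deviations. The members moved together. The median Pearson correlation over the 861 pairs of members was 0.58, against 0.00 over all pairs of the 16045 genes tested, and 58.8% of member pairs had a correlation above 0.5, against 13.3% of all pairs. These are descriptions over 8 libraries without a p, and all genes of a library share its depth and scaling. Without LTβR-Ig replicate 3 the median was 0.45, and without both LTβR-Ig replicates 3 and 4, the libraries with the most extreme deviations, it was 0.42 over 6 libraries. Among the 36 members with a mean of at least 10 CPM it was 0.61.

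LTβR-Ig replicate 3 was the highest library of its group for 32 of 42 members and the lowest for 0, where it was the highest for 26.1% of all genes tested. LTβR-Ig replicate 4 was the lowest of its group for 29 members, where 22.2% of all genes had it lowest. In the control group, replicate 2 was highest for 23 members and replicate 4 was lowest for 24 and highest for 0. The median member stood at 1.47 times the group's geometric mean in LTβR-Ig replicate 3 and at 0.716 times in replicate 4. In controls the same median went from 0.818 in replicate 4 to 1.17 in replicate 2. These are distances between single libraries. The median difference between the groups, a log2 fold change of 0.14, compares groups of 4 libraries and is not a like measure.

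The spread within the LTβR-Ig group was wider than in controls for 34 of 42 members (81.0%), where 50% of all genes tested had it wider. The median SD of log2 CPM over members was 0.549 in LTβR-Ig and 0.351 in control libraries, and over all genes it was 0.427 and 0.422. Without LTβR-Ig replicate 3 it was wider there for 28 of 42 members (66.7%, against 46.4% of all genes), with a median member SD of 0.435. Without LTβR-Ig replicate 4 it was also wider for 28 (66.7%, against 47.8%), with a median of 0.460. As members of one library move together, these counts describe a few libraries and are not independent observations. No test of the spread was made.

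Correlation with the mean deviation of the other members was above 0.5 for 34 of 42 members and above 0.9 for 7. Rnf213 (0.98), Ifit1 (0.98), Irf7 (0.97), Isg15 (0.94), Oasl2 (0.93), Stat2 (0.92) and Ifit3 (0.92) made up the 7. Most of these are textbook targets of type I interferon. All 42 members were listed as interferon response genes, however, and whether a particular interferon lies behind this ranking was not tested. At the other end Irf2 (-0.25), Gbp4 (-0.23) and Bst2 (-0.05) were below 0, and Ifih1 (0.18), Gbp6 (0.22) and Rsad2 (0.28) were low. Irf1 had 0.55, and its correlation with Irf2 alone was -0.843. LTβR-Ig replicate 4 deviated most for both genes, at -0.85 for Irf1 and 0.47 for Irf2. The correlation of Irf1 with Irf2 was not computed without that library. The 16 members with an ISRE core in the window had a median of 0.808 and the 14 without one 0.832. The SD of log2 CPM within groups was largest for Oas2, Mx1, Mx2, Gbp4 and Gbp6, all of them under 10 CPM on average. The mean deviation is unweighted, so such low-count members weigh heavily in it. In LTβR-Ig replicate 4 Mx1 deviated by -5.75 and Mx2 by -4.58, where the median member deviated by -0.48. The correlations of the members with that mean were not repeated without the low-count members.

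**Figure D4:**
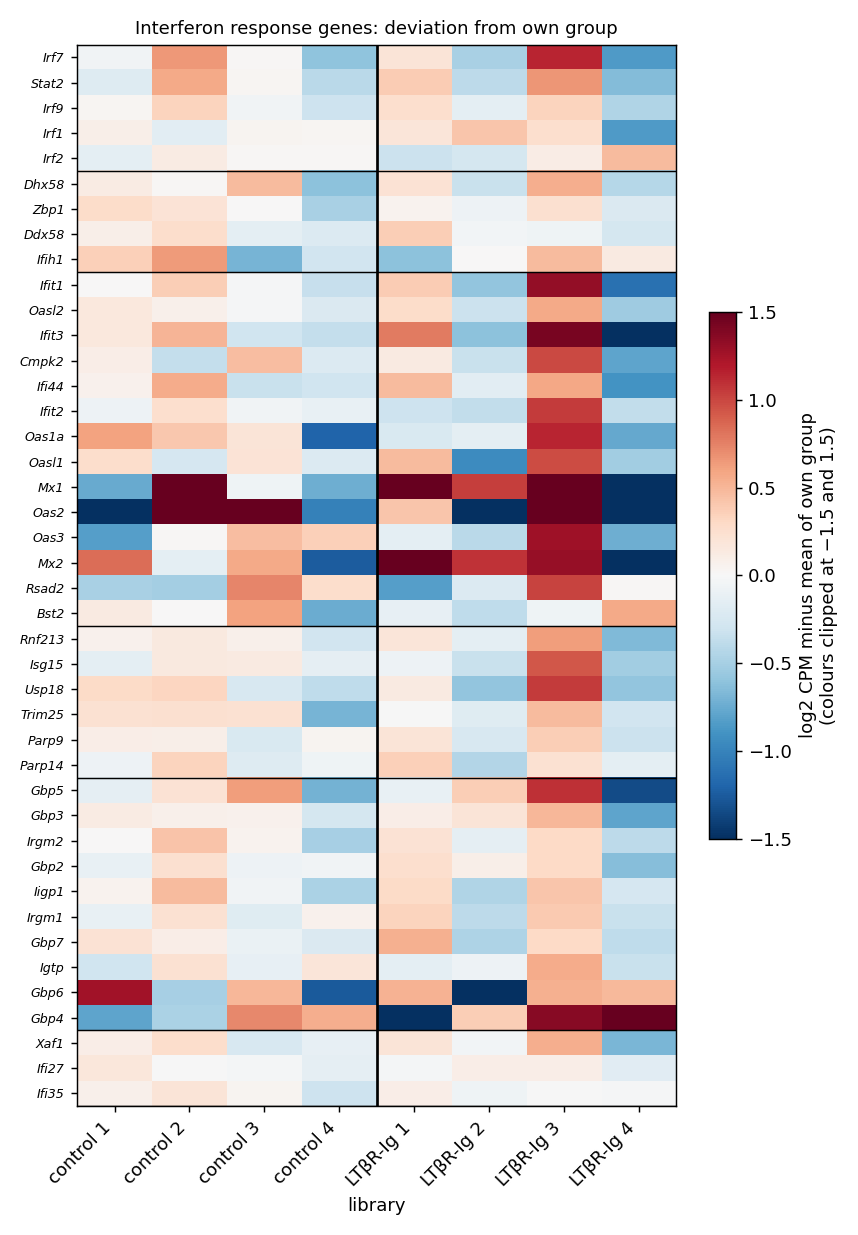
Deviation of each member's log2 CPM from the mean of its own group (colour, clipped at -1.5 and 1.5), with members as rows by role and the 8 libraries as columns, control on the left of the thick line. LTβR-Ig replicate 3 is above its group for 39 of 42 members and LTβR-Ig replicate 4 for 6, and control replicate 4 for 8.

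Genes outside the members with the same pattern were named by rank over 16003 genes. The 5 closest to the mean member deviation were Gm30074, Rpsa-ps4, Dtx3l, Cxcl9 and Ermap, with correlations of 0.97 to 0.98 over 8 libraries, which describe the top of a ranking. Against the mean of only the 36 members with at least 10 CPM, the 5 closest were Rpsa-ps4, Cxcl9, Nudt16, Tfpi2 and Gm30074, so Dtx3l and Ermap were no longer among them. Of the first 5, Dtx3l, the partner gene of Parp9, and Cxcl9, an interferon γ chemokine gene, were in the list of other interferon-induced genes. Gm30074 and Rpsa-ps4 had low counts, at 0.214 to 3.02 and 0.253 to 0.870 CPM. Of the 62 other interferon-induced genes tested, 36 (58.1%) had a correlation above 0.5 with the member mean, against 11.2% of the 16003 genes. This mean takes in the low-count members. Cxcl9 (0.97) and Cxcl10 (0.92) were among the high ones, while Ifitm1 had -0.99, being lowest in LTβR-Ig replicate 3 and highest in control replicate 4, and in its own group highest in LTβR-Ig replicate 4. Ifnar1 had -0.73 and Jak1 -0.17.

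Some markers of other cells also stood apart in LTβR-Ig replicate 3. Endothelial markers took 0.0272% of counts there, where the rest of that group had 0.00345 to 0.0119% and controls 0.00488 to 0.0141%. Macrophage markers took 0.122%, where the rest had 0.0523 to 0.0671% and controls 0.0253 to 0.108%. Megakaryocyte and platelet markers took 0.352%, where the rest had 0.0880 to 0.198% and controls 0.0586 to 0.251%. Monocyte and dendritic cell markers took 0.0268%, where the rest had 0.0101 to 0.0146% and controls 0.0101 to 0.0206%. The markers of the sorted LEPR+ cells took 3.46% in this library, the lowest share of its group. The rest had 3.70 to 4.49% and controls 3.20 to 4.09%. In LTβR-Ig replicate 4, the library with the lowest members, endothelial and macrophage markers took 0.0119 and 0.0671%, neither of them the lowest of the group. Control replicate 2, highest for 23 members, had the lowest endothelial share of the controls, 0.00488%, and a macrophage share of 0.0466%. Control replicate 4, lowest for 24 members, had the highest endothelial share of the controls, 0.0141%, the highest megakaryocyte share, 0.251%, and a macrophage share of 0.0865%. Each of the 10 endothelial and 12 macrophage markers had a mean of at least 0.5 CPM. Of the 10 T and NK cell markers, 4 were under 0.5 CPM on average, and this list took 0.0117% in LTβR-Ig replicate 3 and 0.0108% in control replicate 4, the same libraries in which Ifng was counted. Nkg7 alone made up most of that share, at 95.6 and 96.1 CPM, while Cd3e was at 1.98 and 0 CPM. The part of these cells in the co-variation was not tested.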

How the data were processed

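PolyA RNA of twice-sorted LEPR+ cells was sequenced as paired reads, per the labels' protocols. The authors deposited unnormalized whole-number counts of 52636 genes in 8 libraries. HISAT2, HTSeq and the build mm10 are named in the submitters' processing notes, while strand handling, annotation and tool versions were not given in the sources used here. Symbols, positions and exon lengths came from GENCODE M21 (GRCm38, that is mm10), matched without version suffix for 52489 IDs; IDs without a symbol took 0.0207 to 0.148% of counts. No 2 libraries were alike within sampling noise (chi-square per degree of freedom 140 to 265).

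Counts were tested with edgeR 4.0.16 (R 4.3.3): TMM, filterByExpr by group (minimum count 10, minimum total 15), robust glmQLFit, and Benjamini-Hochberg adjustment over 16045 genes with 0.05 as the threshold. Tested on simulated counts of 15309 genes for this comparison, it called 24% of genes at a fold of 2, 12% at 0.5, 80% at 4 and 74% at 0.25. Log2 CPM for co-variation used a prior count of 2. Alternatives were DESeq2 1.42.0, limma-voom 3.58.1 with sample weights, other size factors and filters, a block for the replicate number, and fits without each library in turn. Members with an unadjusted p under 0.05, the highest per length, the smallest p of each role and the largest SD within groups were given per library; the same values for other members were picked with the values known. Members and lists were chosen with earlier results of these data known. Promoters are RefSeq's for GRCm38.p6; Dhx58, Zbp1, Mx1, Mx2, Oas2, Usp18, Parp9, Parp14, Gbp4, Gbp6, Iigp1 and Ifi27 had no entry matched. A gene of the signalling pathway that the naming rule covers is not reported here.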

Additional observations from a re-analysis of the deposited data

Results flagged for a closer look

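The 42 members and the other genes named were searched, in each group of 4, for a single library lying far outside the rest, by Dixon's 95% limit. Chance alone flags roughly 1 group in 20, and 9 of 110 were found. As members of one library move together, the groups are not independent, and that rate does not measure how unusual 9 is. LTβR-Ig replicate 3 lay outside for 3 members: Ifit2 at 47.9 CPM against 17.9 to 18.6 CPM in the rest of its group, Oas2 at 3.95 CPM against 0 to 0.211 CPM, and Oas3 at 66.9 CPM against 16.7 to 25.0 CPM. Control replicate 2 lay outside for Ifit2 at 30.9 CPM (others 23.9 to 25.0), Mx1 at 9.40 CPM (others 1.88 to 3.07) and Gbp2 at 155 CPM (others 121 to 126). Control replicate 4 was the low one for Trim25 at 24.5 CPM (others 46.4 to 46.6) and Gbp3 at 74.5 CPM (others 93.6 to 97.0). LTβR-Ig replicate 2 had Gbp6 at 1.70 CPM (others 6.98 to 7.23). Of the 9, 3 are high values of LTβR-Ig replicate 3 and 3 are high values of control replicate 2, the libraries in which most members were highest in their group. Both statements rest on the same library values.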

How the results depend on the processing

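Of 415 log2 fold changes of 28 named genes under the alternatives, 400 kept direction and call. Over all 42 members, 3 to 12 changed sign without a single library, most without LTβR-Ig replicate 3 (12) and control replicate 4 (10), and 8 did so with limma-voom. Irf1 was called by DESeq2 (log2 fold change -0.94, adjusted p = 0.027), the only member called in any setting. The count of all genes called was 22 with the stricter filter, 14 with limma-voom, 338 with DESeq2 and 2 to 9 without each library. Members called were 1 with DESeq2 and 0 without each library. Members lower at an unadjusted p under 0.05 numbered 1 to 2 without each library; members higher numbered 0 to 5, and 1 with limma-voom. The 0 arose without control replicate 1, control replicate 4 or LTβR-Ig replicate 3, and the 5 (Gbp3, Ifit3, Isg15, Parp9 and Xaf1) without LTβR-Ig replicate 4. The median over members was 0.03 with limma-voom and -0.05 to 0.25 without each library.

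Some uncalled genes changed sign, low-count genes with larger fold changes among them. Without each library in turn, ranges were -0.06 to 0.40 for Bst2, -0.60 to 0.19 for Gbp4, -0.054 to 0.78 for Gbp6, -0.002 to 0.11 for Ifi27, -0.11 to 0.19 for Jak1, -0.24 to 0.76 for Mx2, -4.48 to 0.18 for Oas2 and -0.34 to 0.037 for Tyk2. With limma-voom Mx1 had -1.35 and Mx2 -1.14. The cause was not tested. The ratio of marker shares crossed 1 for LEPR+ stromal (0.995 to 1.09), macrophage (0.89 to 1.42), monocyte and dendritic (0.72 to 1.04), plasmacytoid dendritic (0.878 to 1.04), T and NK (0.639 to 1.07), B (0.954 to 1.05), plasma (0.766 to 1.43), erythroid (0.785 to 1.14) and endothelial markers (0.888 to 2.07). Co-variation among members was 0.45 to 0.63 without each library. Leaving out both LTβR-Ig replicates 3 and 4, and keeping only members with at least 10 CPM, were chosen after seeing the data.

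The series' design text speaks of 4 pairs. Same-numbered libraries had deviations that correlated at 0.000129 to 0.0749 over genes, and 3 of 8 libraries correlated best with their own number. The main fit did not take the numbers as pairs, but correlations over all genes cannot show whether the members share a pair effect. Replicate 4 was the lowest for 24 members in the control group and for 29 in the LTβR-Ig group. With the replicate number as a block 1 gene was called, no member passed, the member median was 0.03, 6 members changed sign, and Mx1 had -0.28 and Mx2 -0.47. Counts under about 10 CPM limit Mx1, Mx2, Oas2, Gbp4, Gbp5 and Gbp6, and most 2-fold changes would be missed with 4 libraries a group.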
